A study of Mus musculus with 6 samples.

Results

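The skeletal muscle genes described here are 10 genes of the contractile apparatus and its energy supply, taken by symbol from the deposited table of 21720 gene symbols, and all 10 were present in it. They are Acta1, Myh1, Myh2, Myh4, Ckm, Tnnt3, Mylpf, Actn3, Ttn and Mb. Tumours were raised under the skin of young adult female BALB/c mice from H22, a mouse line of hepatocellular carcinoma with wild-type genotype. Mice of the control group received 0.5% carboxymethyl cellulose sodium by gavage, and those of the luteolin group received 200 mg/kg of the plant flavonoid luteolin, both once a day in 0.2 mL for 21 days from a tumour volume of about 50 mm3. Each group gave 3 libraries, and the labels do not say whether each came from a separate tumour, so the p values below measure the spread between these libraries.

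Skeletal muscle contracts when thick filaments of myosin pull on thin filaments of actin within the sarcomere. The troponin complex on the thin filament makes this depend on calcium, giant titin molecules and the Z-disc hold the filaments in place, and creatine kinase and myoglobin serve the supply of energy and oxygen. Mouse muscle holds slow fibres and 3 kinds of fast fibre, each with its own myosin heavy chain, and the most glycolytic fast fibres carry the product of Myh4. Solid tumours of epithelial origin do not normally build sarcomeres, whereas a thin sheet of skeletal muscle, the panniculus carnosus, lies beneath mouse skin.

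The data show that all 10 genes were expressed in all 6 libraries, that each differed 3.46- to 28.01-fold between the highest and the lowest library, and that none differed between the groups at an adjusted p under 0.05. Control replicate 3 and luteolin replicate 2 were the high libraries and luteolin replicate 3 was the low one. Mb was the only one of the 10 genes in which all luteolin libraries lay above all control libraries, with 12.9 ± 7.80 CPM (read counts relative to library size, here the TMM-scaled total) in the luteolin group and 4.94 ± 2.09 CPM in the control group (SD, n = 3 each). Of all genes tested, 15.9% lay above the controls in this way and 12.8% lay below. Actn3 averaged 23.0 ± 7.69 and 47.4 ± 25.1 CPM in the luteolin and control groups and Myh4 125 ± 121 and 306 ± 177 CPM, and the values of both genes overlapped between the groups.

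Promoter sequences are shown for 4 of the 10 genes, one of the thin filament, a pair of the thick filament and one of the energy supply, to show an element that myogenic factors bind. The sequences are the 250 bases before the gene start in RefSeq on the mouse build GRCm38.p6, written 5′ to 3′ on the strand of the gene, with the letters CAGCTG in capitals. CAGCTG is one form of the E box, CANNTG, which MyoD and its relatives recognise, and both read the same on either strand.
Acta1 (chr8:123894776-123895025, minus strand): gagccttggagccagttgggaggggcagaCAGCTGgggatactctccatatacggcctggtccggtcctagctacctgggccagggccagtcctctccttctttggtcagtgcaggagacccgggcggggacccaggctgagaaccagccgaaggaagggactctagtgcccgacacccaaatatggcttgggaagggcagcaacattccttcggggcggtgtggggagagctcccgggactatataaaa
Ckm (chr7:19410844-19411093, plus strand): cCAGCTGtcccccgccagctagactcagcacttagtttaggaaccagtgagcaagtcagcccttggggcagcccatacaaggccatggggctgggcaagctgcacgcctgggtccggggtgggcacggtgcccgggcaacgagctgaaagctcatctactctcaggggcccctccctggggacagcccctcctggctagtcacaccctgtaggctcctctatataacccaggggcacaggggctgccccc
Mylpf (chr7:127211358-127211607, plus strand): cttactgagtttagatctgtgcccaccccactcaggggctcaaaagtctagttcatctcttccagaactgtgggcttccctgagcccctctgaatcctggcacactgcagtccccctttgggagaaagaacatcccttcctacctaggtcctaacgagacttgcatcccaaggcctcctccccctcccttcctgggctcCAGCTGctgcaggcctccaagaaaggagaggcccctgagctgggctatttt
Myh4 (chr11:67237562-67237811, plus strand): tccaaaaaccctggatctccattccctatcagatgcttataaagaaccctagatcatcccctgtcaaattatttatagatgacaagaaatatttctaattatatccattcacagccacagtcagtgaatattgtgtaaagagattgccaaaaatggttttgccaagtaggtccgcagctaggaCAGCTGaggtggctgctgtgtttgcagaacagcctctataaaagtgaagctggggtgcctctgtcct
A promoter was found for 8 of the 10 genes, all but Tnnt3 and Actn3. CAGCTG occurred in 5 of these 8 genes (Acta1, Ckm, Mb, Myh4 and Mylpf), and in 14.7% of all 27025 genes with a promoter in the table. Mb is listed with more than 1 start, and a gene was counted when any of its windows held the letters. The wider pattern CANNTG, which includes CAGCTG, occurred in 6 of the 8 and in 69.3% of all genes. TATAAA, searched on the strand of the gene only, occurred in Acta1, Myh1 and Myh4 and in 8.94% of all genes. The CArG box, bound by serum response factor and searched as CC, 6 bases that are A or T, and GG, occurred in Acta1 and Myh4 (1.62% of all genes), and the MEF2 box, bound by the MEF2 factors, in Myh1, Myh4 and Ttn (3.42% of all genes), both searched on both strands. These matches describe the letters and do not show binding.

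Total counts were between 61081637 and 80442954 per library, and between 15579 and 16767 genes had a count above 0, the most in luteolin replicate 2. Libraries differed in base composition, with a Spearman correlation across genes between GC content and the difference of a library from the average from -0.53 in control replicate 3 to 0.43 in control replicate 1 and luteolin replicate 2. Among the markers of the labelled tumour, Krt18 had 193 to 266 CPM and Krt8 0.790 to 3.54 CPM, whereas Ttr and Hnf4a lay at or near 0. Afp had 43.4 to 66.7 CPM in the controls and 32.7 to 41.8 CPM in the luteolin libraries. It thus lay below all controls in every luteolin library, as did 12.8% of all genes tested. The 10 muscle genes together made up 0.0688%, 0.0910% and 0.143% of the counts in control replicates 1, 2 and 3, against 0.0546%, 0.135% and 0.0340% in luteolin replicates 1, 2 and 3. Their summed level was 1031 ± 408 CPM in the control group and 728 ± 504 CPM in the luteolin group (SD, n = 3 each), so that the means differed by less than either SD. In such bulk samples fewer muscle cells and less RNA per muscle cell cannot be told apart.

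**Figure D1:**
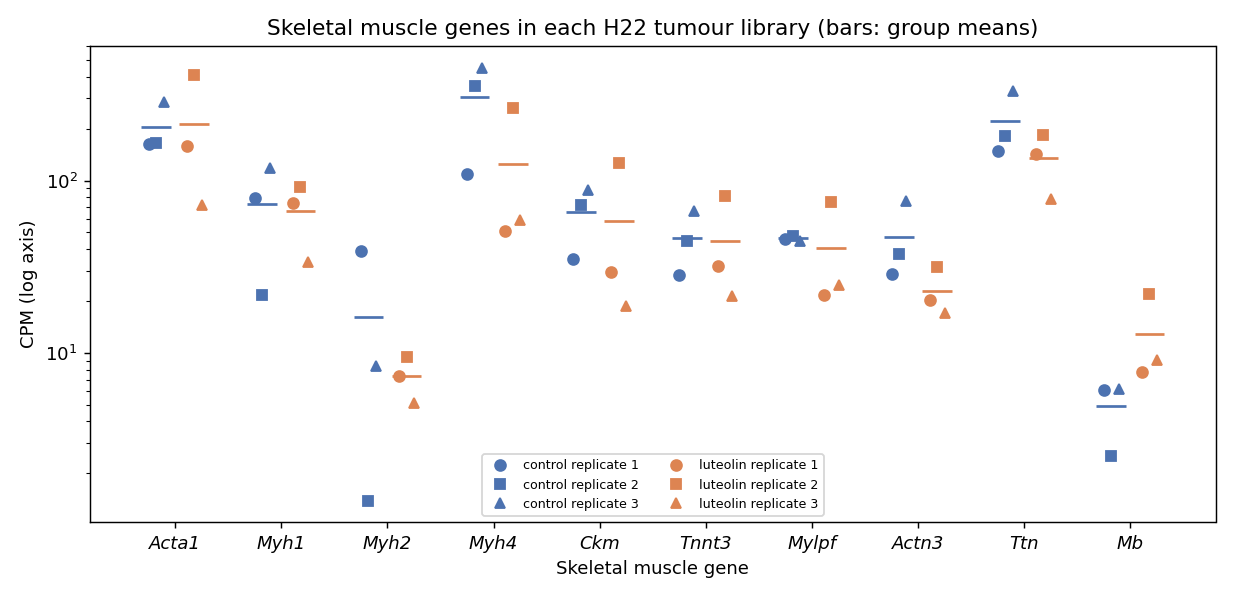
CPM on a log axis of each of the 10 skeletal muscle genes in each library, with control libraries in blue, luteolin libraries in orange, replicates 1, 2 and 3 as circles, squares and triangles, and group means as bars. Luteolin replicate 2 is the highest library for 5 of the 10 genes and luteolin replicate 3 the lowest for 5, and the groups are apart only for Mb. Of all genes tested, 15.9% lay above and 12.8% below the controls in every luteolin library.

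To find out whether luteolin treatment changed these genes, they were compared between the groups with edgeR's quasi-likelihood test over all 14963 genes that passed a filter on low counts, and all 10 passed it. The threshold of the study was a fold change over 2 with an unadjusted p under 0.05, and by it 2 of the 10 genes were called, Mb higher and Actn3 lower, against 12.8% of all genes tested. By direction, 11.3% of all genes were called higher and 1.52% lower. At an adjusted p under 0.05 (Benjamini-Hochberg over all genes), 0 of the 10 were called, against 1.52% of all genes (1.34% higher and 0.187% lower), and 2 had an unadjusted p under 0.05, against 20.5% of all genes. DESeq2 also called 0 at an adjusted p under 0.05. The median log2 fold change of the 10 genes was -0.18, with 8 below 0, and that of all genes was -0.007, with 49.3% above 0. Every luteolin library lay above every control library for 1 of the 10 genes and below for 0, where 15.9% and 12.8% of all genes did.

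The thin filament is built on skeletal alpha-actin, the product of Acta1. Acta1 had 163, 165 and 287 CPM in control replicates 1, 2 and 3, and then 159, 411 and 72.5 CPM in luteolin replicates 1, 2 and 3. The highest and the lowest library both belonged to the luteolin group, which enclosed the control values. Its log2 fold change was 0.06 (standard error, SE, 0.59, 95% interval -1.34 to 1.46, adjusted p = 0.969 in edgeR's test), so that changes of more than 2-fold in either direction lie within the interval. Tnnt3 encodes fast troponin T, which anchors the troponin complex to tropomyosin. It had 28.2, 44.6 and 66.8 CPM in the control libraries and 32.03, 81.0 and 21.5 CPM in the luteolin libraries, in the same order of replicates. Here too the luteolin libraries spanned the range of the controls, and the log2 fold change was -0.05 (SE 0.53, 95% interval -1.31 to 1.20, adjusted p = 0.972 in edgeR's test).

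The thick filament genes were the fast myosin heavy chains Myh1, Myh2 and Myh4 and the fast regulatory light chain Mylpf. Myh4 had 109.7, 356 and 453 CPM in control replicates 1, 2 and 3, and then 51.1, 264 and 59.3 CPM in luteolin replicates 1, 2 and 3. Luteolin replicates 1 and 3 lay below all controls, and luteolin replicate 2 lay among them. The log2 fold change was -1.29 (SE 0.76, 95% interval -3.10 to 0.51, adjusted p = 0.399 in edgeR's test). Without luteolin replicate 2 it was -2.45 with an unadjusted p of 0.00405 and an adjusted p of 0.0899 in the same test, past the study's threshold. DESeq2 gave Myh4 an unadjusted p of 0.0476 and an adjusted p of 0.210, so that 3 of the 10 genes met the study's threshold with that tool. Over all genes 2286 met it with DESeq2, against 1914 in edgeR's test.

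Myh1, the myosin of an intermediate fast fibre, had 78.9, 21.5 and 119 CPM in the controls and 74.2, 91.6 and 33.7 CPM in the luteolin libraries. All luteolin values fell within the range of the controls (log2 fold change -0.14, SE 0.62, adjusted p = 0.935 in edgeR's test). Myh2, the myosin of the most oxidative fast fibre, had 38.9, 1.39 and 8.45 CPM in the controls and 7.36, 9.44 and 5.15 CPM in the luteolin libraries. It varied more than any other of the 10 genes, 28.01-fold between the highest and the lowest library, and both of these were controls. Its log2 fold change of -1.15 (SE 0.99, adjusted p = 0.578 in edgeR's test) rested on control replicate 1, without which it was 0.54 (adjusted p = 0.734). Without control replicate 2 it was -1.72 with an unadjusted p of 0.0381, past the study's threshold, and an adjusted p of 0.381.

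Mylpf had nearly the same level in the controls, 45.9, 47.9 and 44.6 CPM, and 21.6, 74.9 and 24.9 CPM in luteolin replicates 1, 2 and 3. Luteolin replicates 1 and 3 lay below the controls and luteolin replicate 2 above them. The log2 fold change was -0.19 (SE 0.47, 95% interval -1.29 to 0.91, adjusted p = 0.871 in edgeR's test). Without luteolin replicate 2 it was -0.97 with an adjusted p of 0.0472, the only adjusted p under 0.05 for any of the 10 genes among 13 alternative settings of the analysis.

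The Z-disc and titin genes were lower on average in the luteolin group. Actn3, the fast-fibre alpha-actinin that crosslinks actin at the Z-disc, had 28.8, 37.4 and 75.9 CPM in control replicates 1, 2 and 3, and then 20.3, 31.7 and 17.0 CPM in luteolin replicates 1, 2 and 3. Luteolin replicates 1 and 3 lay below all controls, and luteolin replicate 2 lay above control replicate 1. It had a log2 fold change of -1.04 (SE 0.41, 95% interval -2.02 to -0.07, unadjusted p = 0.0396, adjusted p = 0.219 in edgeR's test). Without control replicate 3 the log2 fold change was -0.53 and the unadjusted p 0.155, so that Actn3 no longer met the study's threshold. It was -0.96 without luteolin replicate 1 and -0.92 without luteolin replicate 3, where the threshold was missed as well. Ttn, which encodes titin, the molecular spring of the sarcomere, had 149, 182 and 329.95 CPM in the controls and 142, 185 and 78.2 CPM in the luteolin libraries. Its groups overlapped (log2 fold change -0.71, SE 0.40, adjusted p = 0.378 in edgeR's test).

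Of the enzyme and oxygen-binding genes, Ckm encodes the muscle creatine kinase, which regenerates ATP from phosphocreatine. It had 35.2, 72.6 and 88.4 CPM in the controls and 29.5, 127 and 18.8 CPM in the luteolin libraries, where the highest and the lowest values of all were found. Its log2 fold change was -0.16 (SE 0.72, 95% interval -1.86 to 1.54, adjusted p = 0.934 in edgeR's test). Without luteolin replicate 2 it was -1.42 with an unadjusted p of 0.0122, past the study's threshold, and an adjusted p of 0.153. Mb, which encodes the oxygen store myoglobin, had 6.10, 2.53 and 6.20 CPM in control replicates 1, 2 and 3, and then 7.71, 21.9 and 9.15 CPM in luteolin replicates 1, 2 and 3. All luteolin libraries lay above all controls, with luteolin replicate 1 close to the highest control. The log2 fold change was 1.39 (SE 0.53, 95% interval 0.12 to 2.65, unadjusted p = 0.0359, adjusted p = 0.209 in edgeR's test). It was 0.79 without luteolin replicate 2, with an unadjusted p of 0.107. The threshold was also missed without control replicate 1, 2 or 3, with unadjusted p values of 0.0558, 0.0948 and 0.0579 in edgeR's test. With offsets for GC content and length the log2 fold change of Mb was 0.87 (unadjusted p = 0.0715), that of Actn3 was -1.50 (unadjusted p = 0.00569, adjusted p = 0.0604) and that of Myh4 was -1.78 (unadjusted p = 0.0258, adjusted p = 0.108), so that Actn3 and Myh4 were then the 2 genes past the study's threshold. Over all genes 1864 met it with these offsets, against 1914 without them.

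**Figure D2:**
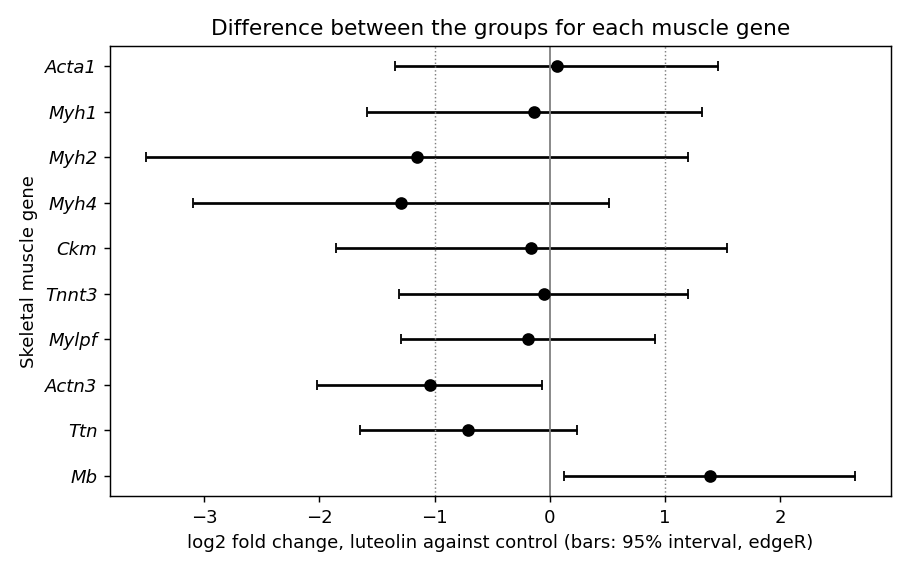
Log2 fold change of the luteolin against the control group for each of the 10 genes (points) with the 95% interval from edgeR's test (bars), and dotted lines at a 2-fold change. The intervals of Actn3 (-2.02 to -0.07) and Mb (0.12 to 2.65) lie on 1 side of 0, and the other 8 include 0.

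Levels of different genes were compared per kilobase of the longest coding transcript in GENCODE M21. Over the 6 libraries the median level was highest for Acta1, with 113 CPM per kb, followed by Mylpf with 59.1, Tnnt3 with 35.5, Myh4 with 31.1 and Ckm with 19.7 CPM per kb. Myh1 (12.6 CPM per kb), Actn3 (10.5), Mb (6.30), Ttn (1.55) and Myh2 (1.30) followed. Within each of the 6 libraries Acta1 had the highest level per kb of the 10 genes, from 50.2 CPM per kb in luteolin replicate 3 to 284 in luteolin replicate 2. Every pair of neighbours in the order of medians overlapped in its ranges over the libraries, such as Tnnt3 (19.9 to 75.1 CPM per kb) and Myh4 (8.49 to 75.2 CPM per kb). The value for Ttn depends on the length taken, since that transcript has 106824 bases and muscle uses shorter forms.

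The makeup of the fast myosins differed between libraries of the same group. Myh2, Myh1 and Myh4 lie next to each other on chromosome 11, between the developmental myosin genes Myh3 and Myh8. Of the summed level per kb of Myh4, Myh1, Myh2 and the slow myosin Myh7, Myh4 made up 48.4%, 94.0% and 78.2% in control replicates 1, 2 and 3, and then 38.8%, 72.6% and 60.5% in luteolin replicates 1, 2 and 3. Myh4 was the largest share in every library but luteolin replicate 1, where Myh1 had 55.7%. Myh1 made up 34.5%, 5.63% and 20.3% in the controls and 24.9% and 34.0% in luteolin replicates 2 and 3. Myh2 reached 17.0% in control replicate 1 and at most 5.53% elsewhere. The groups overlapped for each of the myosins. These genes are similar in sequence, and 2.49% of the windows of 150 bases, the read length, in the Myh1 transcript occur in another of 5 myosin transcripts (Myh2, Myh3, Myh4, Myh7 and Myh8), against 2.06% for Myh2 and 0.511% for Myh4, so that a small part of their reads could have been counted for the wrong gene.

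**Figure D3:**
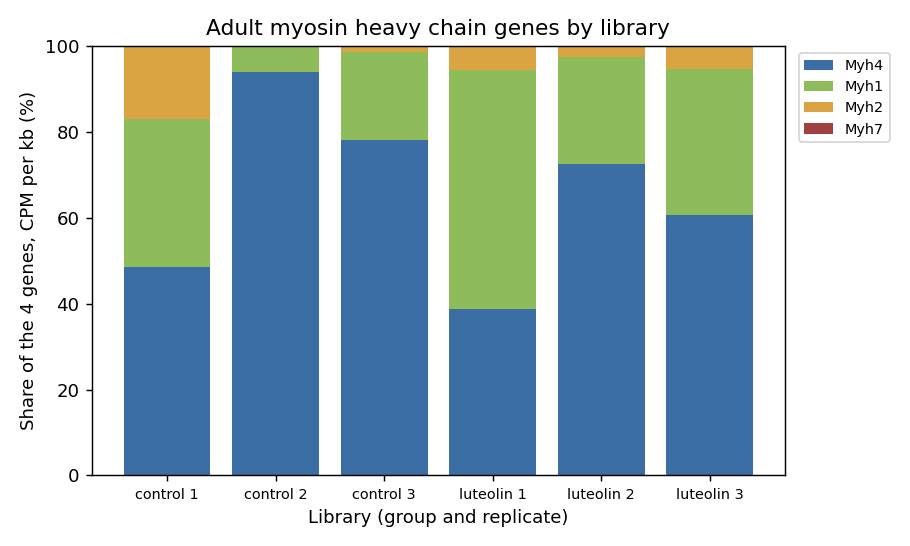
Share of Myh4, Myh1, Myh2 and Myh7 in their summed level per kilobase, in percent, for each library. Myh4 ranges from 38.8% in luteolin replicate 1 to 94.0% in control replicate 2, and Myh7, at 0.247% or less, is too small to be seen.

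The 10 genes varied together to different degrees. Acta1 had a Pearson correlation of log2 CPM over the 6 libraries of 0.92 with Ckm, 0.94 with Tnnt3 and 0.77 with Mylpf, and Actn3 one of 0.95 with Ttn and 0.89 with Myh4. The Spearman values of these pairs were 1.00, 0.94 and 0.77 and then 0.94 and 0.94. Mb and Myh2 stood apart, with Pearson correlations of 0.19 and 0.13 with the mean of the other 9 genes, where the remaining 8 had 0.59 to 0.95. These values are descriptions over 6 libraries that share 1 scaling and differ in base composition, and the groups are pooled in them. Mb was lower relative to Ckm in control replicates 2 and 3, at 0.0866 and 0.174 of its level per kb, than in control replicate 1 (0.430) or luteolin replicates 1, 2 and 3 (0.650, 0.428 and 1.21). Actn3 relative to Acta1 was lowest in luteolin replicate 2, at 0.0386, and between 0.0640 and 0.132 elsewhere.

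The rest of the muscle programme was taken from 6 lists with 58 genes, of which 53 were tested, and was examined in the same way. At the study's threshold 0 of the 53 were called higher and 1 lower, Neb, against 11.3% and 1.52% of all genes. At an adjusted p under 0.05 in edgeR's test 0 were called, against 1.52% of all genes, and 3 had an unadjusted p under 0.05, against 20.5%. Of the 53 genes, 29 had a log2 fold change below 0, the median was -0.07, and the groups were apart in 5 (2 above and 3 below the controls, against 15.9% and 12.8% of all genes). Neb, which encodes nebulin, the ruler of the thin filament, had 83.7, 88.0 and 242 CPM in control replicates 1, 2 and 3, and then 63.2, 62.1 and 31.0 CPM in luteolin replicates 1, 2 and 3. All luteolin libraries lay below all controls (log2 fold change -1.41, SE 0.49, adjusted p = 0.179 in edgeR's test).

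Among the other fast sarcomere genes (9 tested, median log2 fold change -0.19), Mybpc2, the fast myosin-binding protein C, had a log2 fold change of -1.25 (adjusted p = 0.370), and Tpm1, a tropomyosin made in many cell types, one of -0.04. The scaffold genes (10 tested, median -0.30, 0 called) included Xirp2, an actin-binding protein of the muscle attachment sites, with 38.3, 59.6 and 116 CPM in the controls and 38.0, 44.0 and 9.80 CPM in the luteolin libraries. Its lowest value, in luteolin replicate 3, was 11.8-fold below the highest, in control replicate 3. Cmya5, another large protein of the sarcomere, had a log2 fold change of -0.39. The genes of excitation and calcium handling (10 tested, median -0.30, 0 called) included Atp2a1, the calcium pump of fast fibres, with 51.8, 103 and 151 CPM in the controls and 73.3, 194 and 44.0 CPM in the luteolin libraries. Ryr1, the calcium release channel, had a log2 fold change of -0.48 (adjusted p = 0.337) and Pvalb, the calcium buffer parvalbumin, one of -0.18.

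Of the energy metabolism genes (10 tested, median 0.01, 0 called), Pygm, the muscle glycogen phosphorylase, had a log2 fold change of -0.05. Eno3, the muscle enolase, had 98.8, 96.3 and 93.9 CPM in the controls and 44.9, 63.4 and 48.1 CPM in the luteolin libraries. Pfkm, the muscle phosphofructokinase, had 149.8, 145 and 153 CPM in the controls and 108, 115 and 97.2 CPM in the luteolin libraries. Both enzymes of glycolysis lay lower in all luteolin libraries than in all controls, as did 12.8% of all genes tested, with little spread within a group. The summed level of the 10 muscle genes was 683, 931 and 1479 CPM in control replicates 1, 2 and 3, whereas these enzymes stayed nearly level there. Their log2 fold changes were -0.89 (SE 0.17, unadjusted p = 0.00141, adjusted p = 0.0637) for Eno3 and -0.48 (SE 0.13, unadjusted p = 0.00860, adjusted p = 0.120) for Pfkm in edgeR's test, both under the 2-fold limit.

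**Figure D4:**
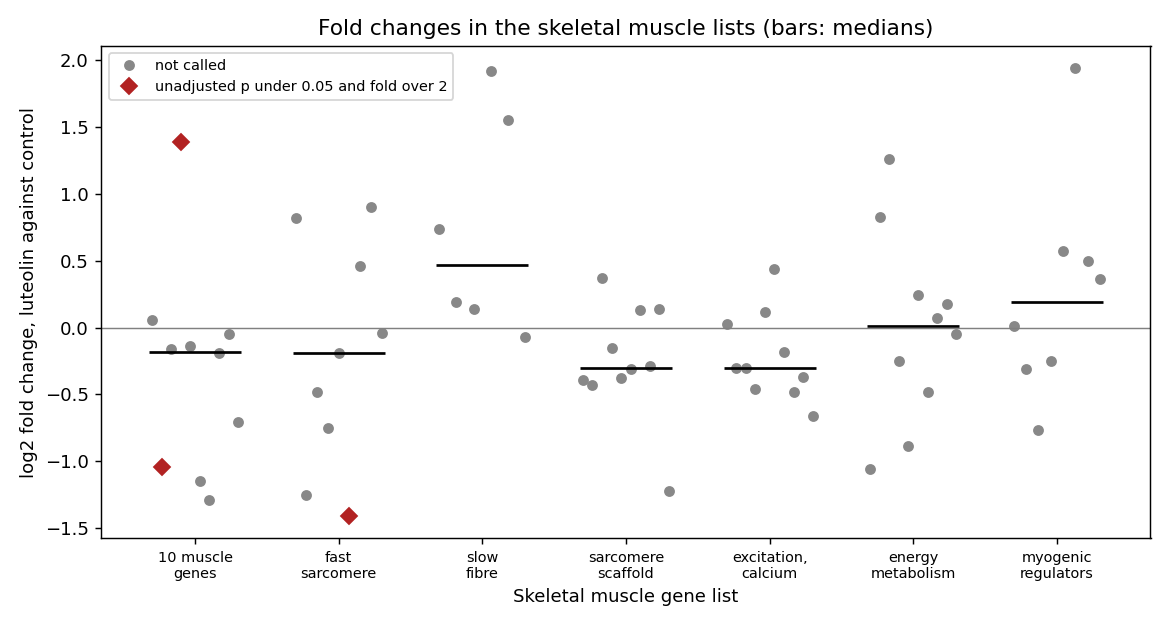
Log2 fold changes of the luteolin against the control group (points, 1 per tested gene) for the 10 muscle genes and for each of the 6 other skeletal muscle lists, with genes past the study's threshold as red diamonds and the list medians as bars. The medians of the skeletal muscle lists run from -0.30 (scaffold and calcium handling genes) to 0.47 (slow fibre genes).

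Several slow fibre genes were near the limit of detection. Of 9 genes 6 were tested, with a median log2 fold change of 0.47 and 0 called. Myh7, the slow myosin heavy chain, had 9, 0 and 4 counts in control replicates 1, 2 and 3 and 0, 0 and 16 counts in luteolin replicates 1, 2 and 3, where a count of 0 allows up to 3 counts, and up to 12 where a read pair entered the table as 4. The most abundant genes of the list, Tpm3 and Actn2, also serve other cells or fibres. Tpm3, a tropomyosin made in most cell types, had 323 to 415 CPM and a log2 fold change of -0.07, Actn2, the alpha-actinin of all fibres, had 3.44 to 24.6 CPM, and Tnnc1, the slow troponin C, had 1.26 to 3.04 CPM. Tnnt1, the slow troponin T, had 1.04, 0.0772 and 0.698 CPM in the controls and 1.88, 1.29 and 2.16 CPM in the luteolin libraries. Tnni1, the slow troponin I, had 0.458, 0.139 and 0.760 CPM in the controls and 0.849, 0.874 and 3.43 CPM in the luteolin libraries. Both were above all controls in every luteolin library, as were 15.9% of all genes tested, whereas the groups overlapped for the other 7 genes of the list. In control replicate 2 the values rested on 5 counts for Tnnt1 and 9 counts for Tnni1, fewer than the 12 counts given above. Neither passed the test (log2 fold changes 1.55 and 1.92, SE 0.86 and 0.86, unadjusted p = 0.114 and 0.0621, adjusted p = 0.368 and 0.271 in edgeR's test), and the pair was chosen after its values were seen.

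The developmental myosins followed another order of libraries than the adult ones. Myh8, the perinatal myosin heavy chain, had 1.63, 0.324 and 7.33 CPM in control replicates 1, 2 and 3, and then 1.18, 1.05 and 11.6 CPM in luteolin replicates 1, 2 and 3. Myh3, the embryonic myosin heavy chain, had 1.37, 0.232 and 5.26 CPM in the controls and 0.0653, 0.227 and 5.49 CPM in the luteolin libraries. Control replicate 3 and luteolin replicate 3 thus held the most of both, although the sum of the 10 adult genes was lowest in luteolin replicate 3. Actc1, the cardiac alpha-actin that developing skeletal muscle also makes, showed the same pair of high libraries, with 1.58 and 3.50 CPM against 0.309 to 0.401 CPM in the other 4. Relative to Myh4, Myh8 was at 0.191 of its level per kb in luteolin replicate 3 and at 0.000891 to 0.0225 elsewhere. The groups overlapped for these 3 genes, and the adjusted p values were 0.855, 0.953 and 0.733 for Myh8, Myh3 and Actc1 in edgeR's test. Myh3 and Actc1 were singled out after their values were seen. Among the other myogenic regulators and early markers (8 of 10 tested, median 0.19, 0 called), Des, the intermediate filament desmin, had a log2 fold change of 0.01 and Mef2c, a transcription factor of the MEF2 family, one of -0.31.

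The genes whose levels were most like the mean of the 10 muscle genes were sought among 2539 tested genes with an SD of log2 CPM of at least 1. The closest 10 were Hhatl, Kcnq5, Kbtbd13, Slc6a20b, Tmprss11f, Glt8d2, Zfp46, Rimbp2, Zfp872 and Trabd2b, with Pearson correlations from 0.961 to 0.907 over the 6 libraries. Zfp46 was the most abundant, with 5.42 to 57.7 CPM, and the other 9 stayed under 5 CPM. Kbtbd13, Slc6a20b, Rimbp2 and Zfp872 were listed at 0 in luteolin replicate 3. None of the 10 was in the 6 other lists of muscle genes, but only 12 of the 53 tested genes of these lists reached this SD and could be found. The lists do not hold every muscle gene, so this does not show whether the 10 are muscle genes. They are the highest of 2539 correlations over only 6 libraries, and their link to muscle was not tested.

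Markers of other cell types differed between the same libraries. The summed level of 10 keratinocyte genes was 4.58, 4.57 and 3.92 CPM in control replicates 1, 2 and 3, and then 398, 9628 and 16.1 CPM in luteolin replicates 1, 2 and 3, and 8 of the 10 genes were listed at 0 in every control library. The defining basal keratin Krt14 was at 0 in the controls and had 157, 2439 and 4.33 CPM in the luteolin libraries. Krt5, also at 0 in the controls, had 50.4, 1883 and 4.74 CPM there. Krt10 had 3.91, 4.28 and 3.23 CPM in the controls and 61.1, 2013 and 4.26 CPM in the luteolin libraries, so that its groups overlapped. The sum of 8 adipocyte genes, led by Cfd, Plin4 and Cidec, was 6.27, 5.87 and 42.5 CPM in the controls and 31.6, 283 and 7.43 CPM in the luteolin libraries. Luteolin replicate 2 was thus highest in keratinocyte and adipocyte genes and among the highest 2 in summed muscle genes, whereas control replicate 3, highest in summed muscle genes, held no keratinocyte signal above the other controls and the second highest adipocyte sum. The sum of 8 fibroblast genes, led by Col3a1, Col1a1 and Dcn, was 1082 to 1234 CPM in the controls and 1616 to 4003 CPM in the luteolin libraries. At the study's threshold 4 of 8 fibroblast genes and 0 of 7 tested adipocyte genes were called higher, against 11.3% of all genes, and 0 of either list at an adjusted p under 0.05 in edgeR's test. No count is given for the keratinocyte list, since 6 of its 8 tested genes were at 0 in every control and passed the filter only through the luteolin libraries, and 0 of the 8 had an adjusted p under 0.05. The part of these cells in the muscle results was not tested.

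**Figure D5:**
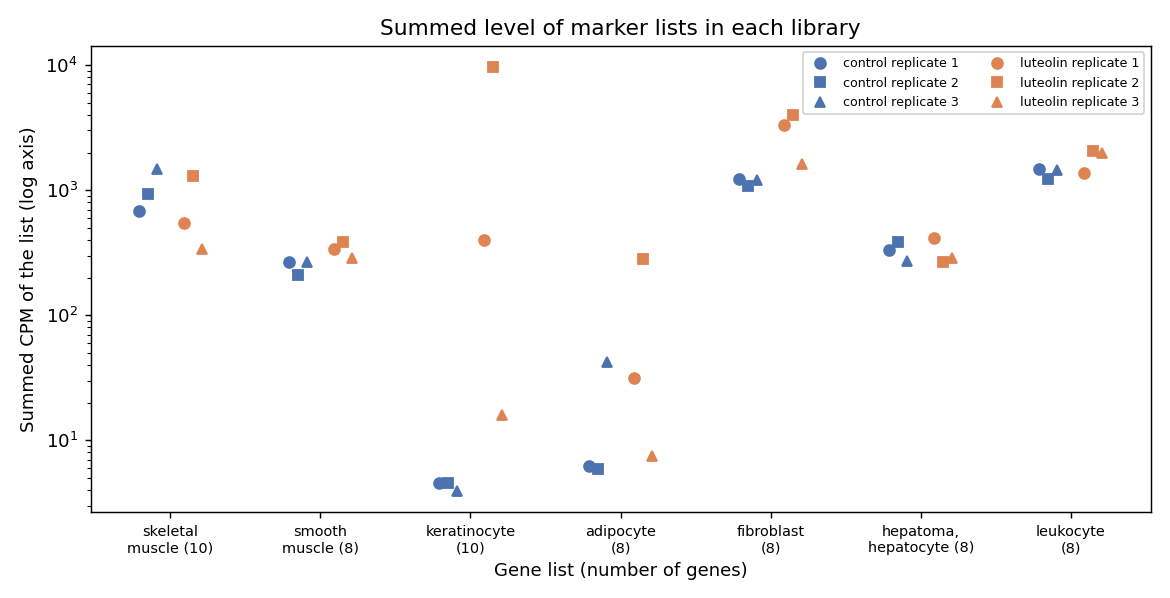
Summed CPM, on a log axis, of the 10 muscle genes and of the marker lists of other cell types in each library. The muscle sum ranges from 340.3 CPM in luteolin replicate 3 to 1479 CPM in control replicate 3, and the keratinocyte sum from 3.92 CPM in control replicate 3 to 9628 CPM in luteolin replicate 2.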

How the data were processed

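RNA from 6 H22 tumour samples was sequenced as read pairs of 150 bases. The authors deposited 1 table of estimated counts per gene symbol, without gene coordinates. Their processing notes name bcl2fastq 2.0, HISAT2, StringTie and DESeq2 and the builds mm39 and rn6, and the study compared the groups with DESeq2 at the threshold used here. The settings of alignment and counting are not given in the sources used here. The deposited counts are whole numbers, but 44.8% of the values from 1 to 40 are multiples of 4, where an even spread gives 25%, so that low counts are coarser than single reads. The deposited counts were used as they stand. Such counts cannot separate transcript forms, and reads that fit several related genes may have been split between them.

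Groups were taken from the labels. Low genes were removed with edgeR's filterByExpr, library totals were scaled with TMM, and luteolin was compared with control in all 6 libraries by edgeR's two-sided quasi-likelihood test with no covariates (edgeR 4.0.16, R 4.3.3), with Benjamini-Hochberg adjustment over all 14963 genes tested. A prior count of 2 was used for log2 CPM. DESeq2 1.42.0 was an alternative, beside another normalization (RLE), other filters, a replicate block, counts divided by 4, leaving out each library and, added after seeing the data, offsets for GC content and length. The scripts were tested on simulated data. Transcript length and GC content came from GENCODE M21 (GRCm38), which held 21053 of the 21720 symbols, and served only for levels per kb and these offsets, since the build differs from the authors'. Promoters came from RefSeq (GRCm38.p6).

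The 10 muscle genes and the gene lists were chosen with earlier results of these data known. Named beside the 10 were the 3 tested genes with the highest mean CPM of each list, any list gene with an adjusted p under 0.05, and the 10 genes most correlated with the mean of the muscle genes. One gene that this rule names is not reported here. Myh7, Myh3, Actc1, Tnnt1, Tnni1, Myh11, Tagln, Actg2, Cnn1, Nppa, Krt8, Ttr and Hnf4a fall outside this rule and were chosen from the lists after their values were seen. A count of 0 allows up to 3 counts, or 0.0359 to 0.0490 CPM by library, for counting error only.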

Additional observations from a re-analysis of the deposited data

How the results depend on the processing

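Over 13 alternative settings for each of the 10 muscle genes, 113 of 130 log2 fold changes kept their direction and their side of an adjusted p of 0.05, 16 changed direction and 1 passed it. Myh4, Actn3, Ttn and Mb kept their direction in every setting. The labels do not say whether same-numbered samples are paired. Correlations of the deviations of same-numbered libraries from their group means were -0.20, -0.09 and 0.06, and with 3 libraries per group they cannot decide it. With a replicate block 1 of the 10 genes met the study's threshold (Myh4) in place of 2, and 1470 in place of 1914 did over all genes. The block also left 35 genes in place of 228 at an adjusted p under 0.05 over all genes. The log2 fold changes of Acta1 and Myh1 turned to -0.21 and 0.037 with it. With GC and length offsets that of Acta1 was -0.56. Leaving out 1 library gave 0 to 3 muscle genes at the study's threshold (0 without control replicate 3, 3 without luteolin replicate 2) and 0 to 1 at an adjusted p under 0.05. Over all genes, 1624 met the study's threshold without control replicate 3 and 1417 without luteolin replicate 2. Leaving out 1 library gave log2 fold changes from -0.81 to 0.41 for Acta1, -0.60 to 0.40 for Myh1, -1.72 to 0.54 for Myh2, -1.42 to 0.18 for Ckm, -0.78 to 0.30 for Tnnt3 and -0.97 to 0.11 for Mylpf. Over all genes, 228 were called at an adjusted p under 0.05, against 1958 with DESeq2, 392 with a minimum of 10 counts, 373 with counts divided by 4, 929 with GC and length offsets and 0 to 312 without 1 library, with 0 in the fits without control replicate 1, 2 or 3 or luteolin replicate 1. In the other muscle lists 1 gene met the study's threshold, against 4 with DESeq2, 2 with counts divided by 4, 5 with GC and length offsets and 1 to 8 without 1 library, the most without luteolin replicate 2. Over all genes 1914 met that threshold, against 2286 with DESeq2, 1731 with counts divided by 4 and 1864 with GC and length offsets. Without 1 library 1417 to 2409 of all genes met it, the fewest without luteolin replicate 2. The cause of these changes was not tested. The SE of the log2 fold changes of the 10 muscle genes was 0.40 to 0.99, against a median of 0.295 over all genes tested.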

Other observations

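Of 8 cardiac muscle genes 5 were tested and 2 were called higher at the study's threshold, Tnnt2 and Tnni3, against 11.3% of all genes, with 0 at an adjusted p under 0.05 in edgeR's test. Tnnt2, a troponin T of the heart and of developing skeletal muscle, had 1.59, 1.48 and 2.40 CPM in control replicates 1, 2 and 3, and then 4.38, 4.15 and 7.34 CPM in luteolin replicates 1, 2 and 3, a log2 fold change of 1.53 (SE 0.41, adjusted p = 0.114). Tnni3, the cardiac troponin I, had 0.758, 0.201 and 0.279 CPM in the controls and 0.816, 4.67 and 1.06 CPM in the luteolin libraries. Its log2 fold change was 2.40 (adjusted p = 0.201 in edgeR's test), with luteolin replicate 2 far above the rest, and that of Nppb was -0.13. Tnnt2 and Tnni3 lay above all controls in every luteolin library, where 15.9% of all genes tested lay above and 12.8% below. Nppa, the atrial natriuretic peptide gene, lay below all controls in every luteolin library (log2 fold change -1.37, unadjusted p = 0.0764, adjusted p = 0.303 in edgeR's test), and the groups overlapped for Actc1. Of 8 smooth muscle genes 7 were tested and 1 was called higher at that threshold, against the same 11.3% of all genes, namely Myh11, the smooth muscle myosin heavy chain (log2 fold change 1.46, adjusted p = 0.132). Myh11, Acta2 and Smtn lay above the controls in every luteolin library, where 15.9% of all genes tested lay above and 12.8% below. The log2 fold changes of Acta2 and Smtn were 0.93 and 0.49, under the 2-fold limit. Cnn1 lay below the controls in every luteolin library (log2 fold change -0.52, adjusted p = 0.542 in edgeR's test), and the groups overlapped for Tagln, Actg2 and Des. Des, which smooth muscle shares with skeletal muscle, had 139 and 164 CPM in control replicate 3 and luteolin replicate 2 and 39.2 CPM in luteolin replicate 3.

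Of the remaining marker lists, 3 of 8 leukocyte genes were called higher at the study's threshold, against 11.3% of all genes. At an adjusted p under 0.05, passed upward by 1.34% of all genes, 1 of the 8 was called, Cd8a, the CD8 alpha chain of cytotoxic T cells (log2 fold change 2.51, adjusted p = 0.0331 in edgeR's test). That call was lost in the fits without control replicate 1, 2 or 3 or luteolin replicate 1, where 0 of all genes were called. The sum of the leukocyte list, led by Lyz2, Csf1r and Ptprc, was 1223 to 1465 CPM in the controls and 1382 to 2050 CPM in the luteolin libraries. Of 7 tested hepatoma and hepatocyte genes 0 were called, and Alb, the third most abundant after Krt18 and Afp, ranged from 0.868 to 133 CPM over the 6 libraries.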
